A study of Mus musculus with 45 samples.

Results

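The genes examined here are the chemokines and chemokine receptors of mouse ileum, taken by symbol from the series' table of expression values. A gene was a member if its symbol began with Ccl, Cxcl, Cx3cl or Xcl (ligands) or with Ccr, Cxcr, Cx3cr or Xcr (receptors), followed by a number. This gave 56 of 19494 genes, of which 38 were ligands and 18 were receptors. Ccl21b and Ccl21c had identical values on all 45 arrays, so the 56 genes stand for 55 distinct measurements, and their transcripts cannot be told apart here. Every value is a log2 intensity, so a difference of 1 is a doubling. Levels are compared between mice and not between genes, because probes differ in brightness.

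The series measured whole pieces of ileum from mice about 11 weeks old, 1 array per mouse, in 9 groups of 5. The controls were Fadd fl/fl and Casp8 fl/fl, mice with floxed alleles. In FADD IEC-KO and CASP8 IEC-KO the gene is deleted in intestinal epithelial cells (IEC). FADD is the adaptor that brings caspase-8 to death receptors, and loss of either frees necroptosis, a lytic cell death run by the kinase RIPK3 and its executioner MLKL and triggered in some settings by the sensor ZBP1. The other groups carried a further deletion. Loss of MLKL was studied in FADD IEC-KO Mlkl -/- and CASP8 IEC-KO Mlkl -/-, loss of ZBP1 in FADD IEC-KO Zbp1 -/-, and epithelial loss of RIPK3 in the group named FADD IEC-KO RIPK3 IEC-KO. The last group, by its titles FADD IEC-KO CASP8 IEC-KO Mlkl -/-, is called the triple mutants below, although its genotype field named only CASP8 IEC-KO Mlkl -/-. All mice were on chow in a specific-pathogen-free facility. Deletions marked IEC-KO are restricted to the epithelium, so other cells of the tissue keep the floxed genes, whereas Mlkl -/- and Zbp1 -/- name alleles without such a restriction. The Cre driver, strain, sex and whether mice were littermates are not given in the sources used here.

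Fadd was 6.05 to 6.45 on average in the 5 groups labelled as lacking it and 7.43 to 7.53 in the others, the triple mutants included among the former. Casp8 was 9.55 to 10.23 in the 3 groups labelled as lacking it and 11.14 to 11.40 in the others. FADD IEC-KO replicate 1 stood apart from its group. It had a Fadd level of 7.32, against 5.96 to 6.45 in the other 4 mice. CASP8 IEC-KO replicate 1 had the highest Casp8 level of its group, 10.89 against 9.63 to 10.57, but did not stand apart from it and lay below all Casp8 fl/fl mice. Results whose call changed when 1 of these libraries was left out are given both ways. Mlkl was 8.43 ± 0.22 (SD, n = 5) in CASP8 IEC-KO Mlkl -/-, near the 8.62 ± 0.21 of Casp8 fl/fl, so it did not check that label. The 6 ileal marker genes (among them Fabp6 and Slc10a2) averaged 10.98 to 11.34 in every group. Of these Slc10a2 (0.39 ± 0.10), Slc51a (0.53 ± 0.13) and Amn (0.57 ± 0.15) were higher where RIPK3 was lost beside FADD than where MLKL was. All 5 FADD IEC-KO RIPK3 IEC-KO mice had high Y-linked genes, against 2 or 3 of 5 in each other group. Titles carried numbers either under 100 or of 200 and over, of unstated meaning, which were treated as if they could mark a batch. Numbers of 200 and over belonged to every triple mutant and to no FADD IEC-KO Mlkl -/- mouse.

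Chemokines are small secreted proteins that bind G protein-coupled receptors on leukocytes and direct them along gradients. In the small intestine, epithelial CCL25 draws lymphocytes with CCR9, CCL20 draws cells with CCR6 to lymphoid follicles, and membrane-bound CX3CL1 and CXCL16 meet CX3CR1 on macrophages and CXCR6 on T cells. CXCL9, CXCL10 and CXCL11 are induced by interferon and share the receptor CXCR3 of activated T cells. CXCL1, CXCL2 and CXCL5 bind CXCR2 on neutrophils, CCL11 binds CCR3 on eosinophils, CCL17 and CCL22 bind CCR4, and stromal CXCL12, CXCL13, CCL19 and CCL21 organise lymphoid tissue through CXCR4, CXCR5 and CCR7.

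Upstream sequences are shown for 3 sets whose values are compared below: the interferon-induced neighbours Cxcl9 and Cxcl10, the neutrophil ligands Cxcl1 and Cxcl3, and the neighbours Ccl6 and Ccl9. Each is the 250 bases before a start site, 5′ to 3′ on the gene's strand, from RefSeq on GRCm38.p6. They lie at chr5:92328080-92328329 (minus strand, Cxcl9), chr5:92348890-92349139 (minus, Cxcl10), chr5:90890995-90891244 (plus, Cxcl1), chr5:90785851-90786100 (plus, Cxcl3), chr11:83593088-83593337 (minus, Ccl6) and chr11:83578637-83578886 (minus, Ccl9). Capitals mark matches, on either strand, to any of 3 patterns: an interferon-stimulated response element written GAAANNGAAA, a gamma-activated site written TTCNNNGAA and a kappaB site written GGGNNNTTCC.
Cxcl9: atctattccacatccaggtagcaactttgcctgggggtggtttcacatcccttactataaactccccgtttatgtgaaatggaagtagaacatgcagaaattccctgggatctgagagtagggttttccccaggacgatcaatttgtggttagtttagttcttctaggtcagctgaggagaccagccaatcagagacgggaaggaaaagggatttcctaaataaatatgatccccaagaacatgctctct
Cxcl10: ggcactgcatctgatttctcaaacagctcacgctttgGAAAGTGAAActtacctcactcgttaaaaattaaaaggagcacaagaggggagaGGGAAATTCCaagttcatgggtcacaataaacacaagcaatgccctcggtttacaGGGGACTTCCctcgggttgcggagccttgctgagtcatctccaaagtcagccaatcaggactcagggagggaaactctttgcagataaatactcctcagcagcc
Cxcl1: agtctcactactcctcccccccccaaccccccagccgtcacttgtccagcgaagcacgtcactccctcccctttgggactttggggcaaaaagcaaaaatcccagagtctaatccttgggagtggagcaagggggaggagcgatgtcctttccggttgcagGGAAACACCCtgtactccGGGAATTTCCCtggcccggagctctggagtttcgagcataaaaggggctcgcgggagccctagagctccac
Cxcl3: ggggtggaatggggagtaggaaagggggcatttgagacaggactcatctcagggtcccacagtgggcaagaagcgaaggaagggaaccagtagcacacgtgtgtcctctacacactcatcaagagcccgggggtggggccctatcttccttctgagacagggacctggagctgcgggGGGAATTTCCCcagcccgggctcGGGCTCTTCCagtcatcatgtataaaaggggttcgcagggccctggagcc
Ccl6: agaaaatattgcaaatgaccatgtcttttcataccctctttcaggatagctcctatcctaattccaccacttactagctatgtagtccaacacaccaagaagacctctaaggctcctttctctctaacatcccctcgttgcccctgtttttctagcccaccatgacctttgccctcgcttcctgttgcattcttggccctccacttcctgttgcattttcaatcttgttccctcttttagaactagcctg
Ccl9: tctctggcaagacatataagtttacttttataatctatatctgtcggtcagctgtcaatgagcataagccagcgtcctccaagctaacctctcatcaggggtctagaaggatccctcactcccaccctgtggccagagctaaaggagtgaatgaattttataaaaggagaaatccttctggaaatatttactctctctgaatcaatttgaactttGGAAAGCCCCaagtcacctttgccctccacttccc

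Cxcl10 held the response element at -213 to -204 from the start and kappaB matches at -159 to -150 and at -104 to -95. Cxcl1 held overlapping kappaB matches on both strands at -71 to -62 and -70 to -61, and Cxcl3 did so at -73 to -64 and -72 to -63. Cxcl2, whose window is not printed, did so at -97 to -88 and -96 to -87. No pattern was found in these windows of Cxcl9 and Ccl6. Over all 32536 mouse promoter windows of the same length, 2.98% held the response element, 7.04% the gamma-activated site and 4.65% the kappaB pattern. Of the 56 members 41 had a window in the table, and 3, 4 and 9 of these held each pattern in turn. A match describes letters only, and no binding was measured.

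Over all 9 groups together, 16 of the 56 members (28.6%) differed by limma's moderated F-test at a Benjamini-Hochberg adjusted p under 0.05, against 25.4% of all genes, so the members' share lay near the background. They were the ligands Ccl5, Ccl6, Ccl9, Ccl11, Ccl12, Ccl22, Ccl25, Cx3cl1, Cxcl9, Cxcl10, Cxcl11, Cxcl12 and Cxcl16 and the receptors Ccr4, Ccr9 and Xcr1. The smallest adjusted p was that of Ccl6 (9.15e-09), a rodent chemokine of myeloid cells, followed by the membrane-bound chemokine Cx3cl1 (1.78e-04). Between single groups, 20 members were called in at least 1 comparison (17 ligands and 3 receptors) and 36 in none. The share of all genes called in at least 1 comparison was not counted, so these counts have no background to be set against.

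**Figure D1:**
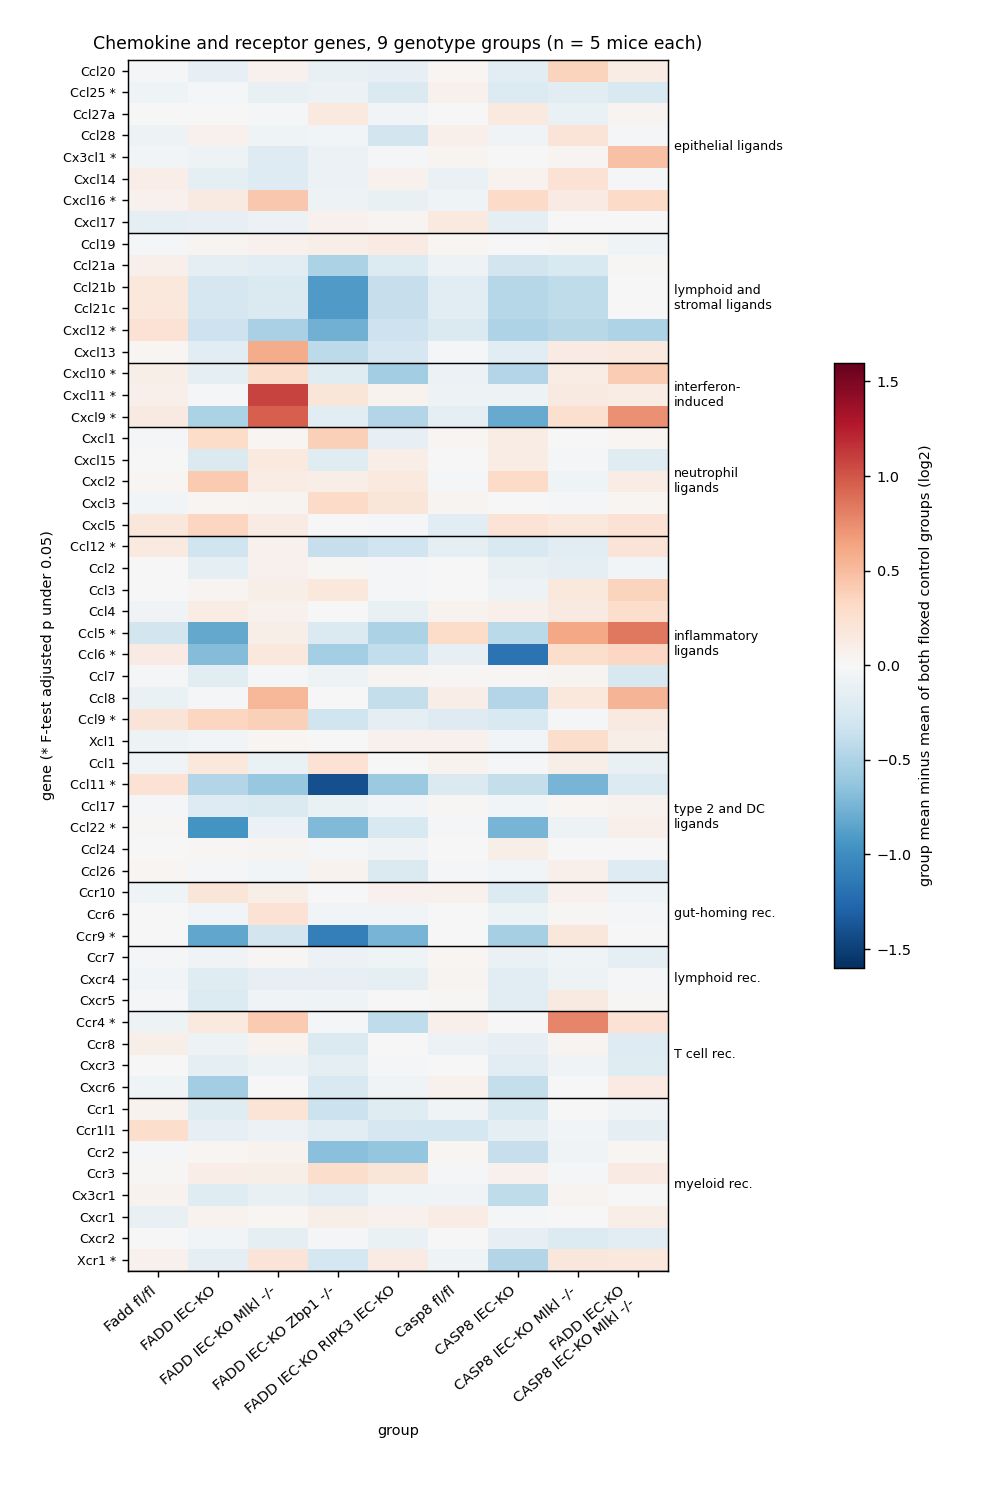
Heat map of the 56 genes (rows, in order of role) in the 9 groups (columns, 5 mice each). Colour is the group mean minus the mean of both floxed control groups, in log2 units, and an asterisk marks the 16 genes called by the F-test. The strongest reds are Cxcl11 and Cxcl9 in FADD IEC-KO Mlkl -/-, and the strongest blues are Ccl11 in FADD IEC-KO Zbp1 -/- and Ccl6 in CASP8 IEC-KO.

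The comparisons ask what loss of FADD or caspase-8 does to these genes, and whether also losing MLKL, ZBP1 or RIPK3 changes that. Beside each count of members called stands the share of all 19494 genes called in the same comparison. Loss of FADD lowered 3 members and raised none (all genes 3.73%), and loss of caspase-8 lowered 2 and raised none (4.17%). Against FADD IEC-KO, loss of MLKL raised 2 (1.61%), loss of ZBP1 lowered 2 (3.32%) and loss of RIPK3 called 0 (1.55%), where 9 members had an unadjusted p under 0.05 in limma and the smallest adjusted p was that of Cxcl1 (0.111). Against CASP8 IEC-KO, loss of MLKL raised 4 (2.78%).

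Against Fadd fl/fl, FADD IEC-KO Mlkl -/- had 2 members higher and 2 lower (all genes 10.5%) and FADD IEC-KO Zbp1 -/- had 2 higher and 8 lower (11.9%). FADD IEC-KO RIPK3 IEC-KO had 0 called against Fadd fl/fl (1.23%), with 10 at an unadjusted p under 0.05 and Cxcl12 nearest (adjusted p = 0.0863). CASP8 IEC-KO Mlkl -/- had 0 called against Casp8 fl/fl (1.09%), with 5 at an unadjusted p under 0.05 and Ccr4 nearest (adjusted p = 0.0684). The triple mutants had 1 higher and 1 lower than the mean of both controls (3.69%), 1 higher and 1 lower than FADD IEC-KO Mlkl -/- (7.86%), and 1 higher than CASP8 IEC-KO Mlkl -/- (3.10%).

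Among the groups with a second deletion, FADD IEC-KO Zbp1 -/- had 4 members lower than FADD IEC-KO Mlkl -/- (all genes 4.12%), FADD IEC-KO RIPK3 IEC-KO had 6 lower than FADD IEC-KO Mlkl -/- (4.96%) and 1 lower than FADD IEC-KO Zbp1 -/- (2.02%). The control groups differed in 0 members (0.00513% of all genes), with 4 at an unadjusted p under 0.05 and Ccr1l1 nearest (adjusted p = 0.339). The effect of FADD loss differed from that of caspase-8 loss in 0 members (0% of all genes), with 3 at an unadjusted p under 0.05 and Ccr10 nearest (adjusted p = 0.466). The effect of losing MLKL differed between the FADD and the caspase-8 background in 0 members (0.0564%), with 5 at an unadjusted p under 0.05 and Cxcl11 nearest (adjusted p = 0.435). Many of these comparisons share a group of mice, so their calls are not independent of each other.

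**Figure D2:**
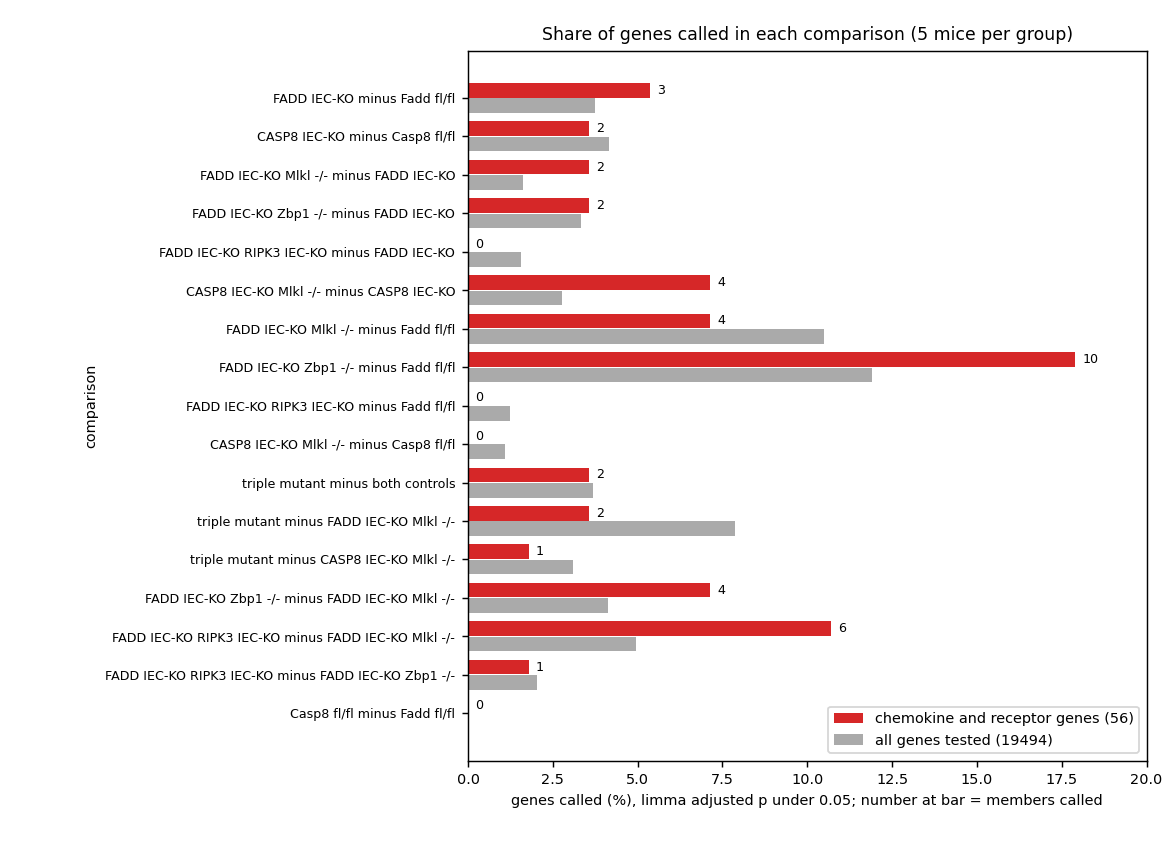
Bars give the percentage of the 56 chemokine and receptor genes (red) and of all 19494 genes (grey) called in each of 17 comparisons, limma adjusted p under 0.05, 5 mice per group. The number at each red bar is the count of members called; the longest red bar is 10 members in FADD IEC-KO Zbp1 -/- against Fadd fl/fl, where 11.9% of all genes were called.

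Of the 8 ligands with known epithelial sources, Cx3cl1 was higher in the triple mutants than in each group they were compared with, without overlap in 2 of the 3 comparisons. Its levels in the triple mutants were 9.02, 8.74, 8.99, 8.90 and 8.83. In CASP8 IEC-KO Mlkl -/- they were 8.62, 8.45, 8.18, 8.56 and 8.54, and in FADD IEC-KO Mlkl -/- they were 8.05, 8.18, 8.34, 8.19 and 8.35. Every triple mutant lay above every mouse of both those groups. The difference was 0.68 ± 0.10 (SE) against FADD IEC-KO Mlkl -/- (adjusted p = 2.29e-05) and 0.43 ± 0.10 against CASP8 IEC-KO Mlkl -/- (adjusted p = 0.00839), with all 5 mice above the other group's mean in both.

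The floxed controls reached 8.58 (Fadd fl/fl) and 8.76 (Casp8 fl/fl), the latter above the lowest triple mutant, and the difference from the mean of both groups was 0.47 ± 0.08 (adjusted p = 5.95e-04). With title series as a term the difference from CASP8 IEC-KO Mlkl -/- lost its call (adjusted p = 0.0950), as it did without CASP8 IEC-KO Mlkl -/- replicate 3 (adjusted p = 0.0529). Among mice with title numbers of 200 and over it was 0.36, with 1 CASP8 IEC-KO Mlkl -/- mouse. The triple mutants and FADD IEC-KO Mlkl -/- share no title series, so there series and genotype cannot be told apart within the pair. The general epithelial list had 1 of 7 genes higher and 0 lower in each of these comparisons, and Vil1 was the gene called each time. Other lists, epithelial and not, moved beside Cx3cl1. Against FADD IEC-KO Mlkl -/-, 5 of 9 enterocyte markers (Slc5a1, Apoa1, Alpi, Fabp1 and Treh) and 6 of 8 Paneth cell markers were higher in the triple mutants and 0 were lower. The enterocyte list summed to 31803 to 34710 in the triple mutants and 24784 to 29593 in FADD IEC-KO Mlkl -/-, and the Paneth list to 17059 to 22606 and 4311 to 10345. The smooth muscle markers Acta2, Myh11, Cnn1, Tagln, Des and Actg2 were higher there as well, with sums of 9775 to 13604 against 5474 to 7659. So was the fibroblast marker Postn (0.93 ± 0.20), whereas the goblet cell marker Agr2 was lower (-0.41 ± 0.09). In each of the other comparisons of the triple mutants 1 enterocyte marker and 0 Paneth markers were higher. The part of these lists in the Cx3cl1 result was not tested. The receptor gene Cx3cr1 was called in no comparison of all mice. Without CASP8 IEC-KO replicate 1 it was higher in CASP8 IEC-KO Mlkl -/- than in CASP8 IEC-KO (0.57 ± 0.17, adjusted p = 0.0420). With that mouse the difference was 0.45 (adjusted p = 0.161).

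Cxcl16, the CXCR6 ligand, was high in FADD IEC-KO Mlkl -/-, at 9.01, 9.23, 9.22, 9.46 and 9.39. FADD IEC-KO RIPK3 IEC-KO mice had 8.59, 8.46, 8.72, 8.80 and 9.0, and FADD IEC-KO Zbp1 -/- mice had 8.74, 8.60, 8.81, 8.85 and 8.78. Neither group overlapped with FADD IEC-KO Mlkl -/-. The differences were -0.55 ± 0.12 for the RIPK3 group (adjusted p = 0.00346) and -0.51 ± 0.12 for the Zbp1 group (adjusted p = 0.00897). Against Fadd fl/fl, Cxcl16 rose in FADD IEC-KO Mlkl -/- by 0.36 ± 0.12 (adjusted p = 0.0436), a call that held in 3 of 10 fits that each left out 1 mouse. In CASP8 IEC-KO it was 9.13 ± 0.31 (SD) against 8.76 ± 0.10 in Casp8 fl/fl, with an adjusted p of 0.0628. Without CASP8 IEC-KO replicate 1 that difference was called (0.40 ± 0.13 SE, adjusted p = 0.0486).

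Ccl25, the gut-homing signal for CCR9+ lymphocytes, varied little, from a group mean of 7.77 to one of 8.09. It was lower in CASP8 IEC-KO than in Casp8 fl/fl by -0.29 ± 0.08 (adjusted p = 0.0222), and lower in the triple mutants than in both controls by -0.25 ± 0.07 (adjusted p = 0.0277). The first call was lost in a fit of only the groups compared (adjusted p = 0.163), and the second with title series as a term (adjusted p = 0.0932) or in a fit of only the groups compared (adjusted p = 0.119). Ccl20, the CCR6 ligand of follicle epithelium, was 6.40 ± 0.27 in CASP8 IEC-KO Mlkl -/- and 5.86 ± 0.16 in CASP8 IEC-KO, a rise of 0.54 ± 0.14 (adjusted p = 0.0263) with no overlap of the mice. That call held in 5 of 10 fits leaving out 1 mouse. Ccl28, a mucosal ligand of CCR10 and the epithelial ligand with the highest mean, ranged from 8.76 to 9.26 over the group means and was called nowhere, like Ccl27a, Cxcl14 and Cxcl17.

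Of the 3 interferon-induced ligands, Cxcl11 rose in FADD IEC-KO Mlkl -/- over FADD IEC-KO, and all 3 were lower in FADD IEC-KO RIPK3 IEC-KO than in FADD IEC-KO Mlkl -/-. Cxcl11 was 6.74, 6.31, 6.82, 6.95 and 6.87 in FADD IEC-KO Mlkl -/- and 6.11, 5.49, 5.24, 5.99 and 5.31 in FADD IEC-KO. Fadd fl/fl had 6.22, 5.24, 5.61, 5.47 and 6.17. Each FADD IEC-KO Mlkl -/- mouse lay above all mice of both groups. The rise was 1.11 ± 0.20 (SE) over FADD IEC-KO (adjusted p = 8.50e-04) and 0.99 ± 0.20 over Fadd fl/fl (adjusted p = 0.00110).

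Other groups kept Cxcl11 near the controls. The triple mutants had 5.51, 5.44, 6.30, 5.79 and 5.87, all below FADD IEC-KO Mlkl -/-, a difference of -0.95 ± 0.20 (adjusted p = 0.00267). That pair shares no title series, so series and genotype cannot be told apart within it. The call held under every alternative setting, with an adjusted p of up to 0.0481. FADD IEC-KO Zbp1 -/- had 6.19, 5.49, 6.05, 6.48 and 5.07, a difference of -0.88 ± 0.20 (adjusted p = 0.00817) with overlap through its highest mouse. That call was lost in a fit of only the groups compared (adjusted p = 0.0737) and without FADD IEC-KO Zbp1 -/- replicate 5 (adjusted p = 0.0546). In FADD IEC-KO RIPK3 IEC-KO, at 5.99, 5.84, 5.53, 5.51 and 5.71, the difference was -1.02 ± 0.20 (adjusted p = 0.00152). In CASP8 IEC-KO Mlkl -/- Cxcl11 was 5.81 ± 0.24 (SD), 0.23 ± 0.20 (SE) above CASP8 IEC-KO (adjusted p = 0.724). The test of whether loss of MLKL acted differently in both backgrounds gave 0.88 ± 0.29 with an adjusted p of 0.435, so a difference between them was not shown.

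Cxcl9 and Cxcl10 varied more between mice of 1 genotype. Cxcl9 was 8.74, 8.13, 8.64, 8.76 and 8.88 in FADD IEC-KO Mlkl -/-. In the FADD IEC-KO RIPK3 IEC-KO mice it was 7.59, 7.28, 7.95, 7.04 and 6.13, without overlap. This was the largest called difference of that comparison, -1.43 ± 0.44 (adjusted p = 0.0470), and it held in 1 of 10 fits leaving out 1 mouse. Cxcl10 differed likewise, by -0.83 ± 0.24 (adjusted p = 0.0291), and so all 3 interferon-induced ligands were called lower in the RIPK3 group than in the MLKL group. The Cxcl10 call held in 6 of 10 fits leaving out 1 mouse. With title series as a term the calls of Cxcl9 (-1.41, adjusted p = 0.0697) and Cxcl10 (-0.79, adjusted p = 0.0517) were lost, with differences close to those without the term. Title numbers under 100 are the only series these groups share. Among those mice the difference was -1.02 for Cxcl9, -0.58 for Cxcl10 and -0.95 for Cxcl11. The RIPK3 group holds only mice with high Y-linked genes, and with that index as a term the call of Cxcl9 was lost as well (-1.41, adjusted p = 0.0661).

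In FADD IEC-KO the 5 mice ranged from 5.41 to 8.83 for Cxcl9, and the highest was replicate 1, the mouse with a control-like Fadd level. Against this group Cxcl9 was 1.47 ± 0.44 higher in FADD IEC-KO Mlkl -/- with an adjusted p of 0.0865, and without that mouse 1.88 ± 0.43 with an adjusted p of 0.00952. Fadd fl/fl was split, with 6.79 and 6.86 in replicates 1 and 5 and 8.33 to 8.69 in the others. Cxcl9 and Cxcl10, whose upstream windows are shown above, are neighbours in the gene order. In those windows Cxcl10 held the response element and Cxcl9 held no match.

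Markers moved with these ligands in some comparisons and not in others. Of 20 measured genes of chemokine induction (cytokines, NF-kappaB and interferon factors), 3 rose in FADD IEC-KO Mlkl -/- over FADD IEC-KO and 0 fell: Irf7, an interferon-induced factor, by 1.03 ± 0.17, Nfkb2 by 0.82 ± 0.09 and the NF-kappaB inhibitor gene Nfkbia by 0.50 ± 0.11. Against FADD IEC-KO Mlkl -/-, 5 of the 20 were lower and 0 higher in FADD IEC-KO RIPK3 IEC-KO, among the lower ones Tnf (-1.75 ± 0.25), Nfkb2 (-0.96 ± 0.09) and Nfkbia (-0.89 ± 0.11). In the latter comparison 3 of 9 enterocyte markers (Apoa1, Alpi and Treh) and 3 of 6 ileal markers were higher in the RIPK3 group and 0 lower, with summed intensities of 32299 to 35525 against 24784 to 29593 and of 19418 to 20529 against 14802 to 19126. Of 9 T cell markers 0 were called in either comparison. Their summed intensity was 516 to 988 without FADD, 780 to 928 where MLKL was also absent and 592 to 908 where RIPK3 was also absent. Tnf, Nfkb2 and Nfkbia were also lower in FADD IEC-KO Zbp1 -/- than in FADD IEC-KO Mlkl -/-, where Cxcl11 was lower. Irf7, however, was higher in the triple mutants than in FADD IEC-KO Mlkl -/- (0.58 ± 0.17), where Cxcl11 was lower. It also rose in FADD IEC-KO Zbp1 -/- over FADD IEC-KO (0.91 ± 0.17). In CASP8 IEC-KO Mlkl -/- it rose over CASP8 IEC-KO (1.35 ± 0.17). No interferon-induced ligand was called in these last comparisons. What part any of these lists has in the ligand values was not tested.

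**Figure D3:**
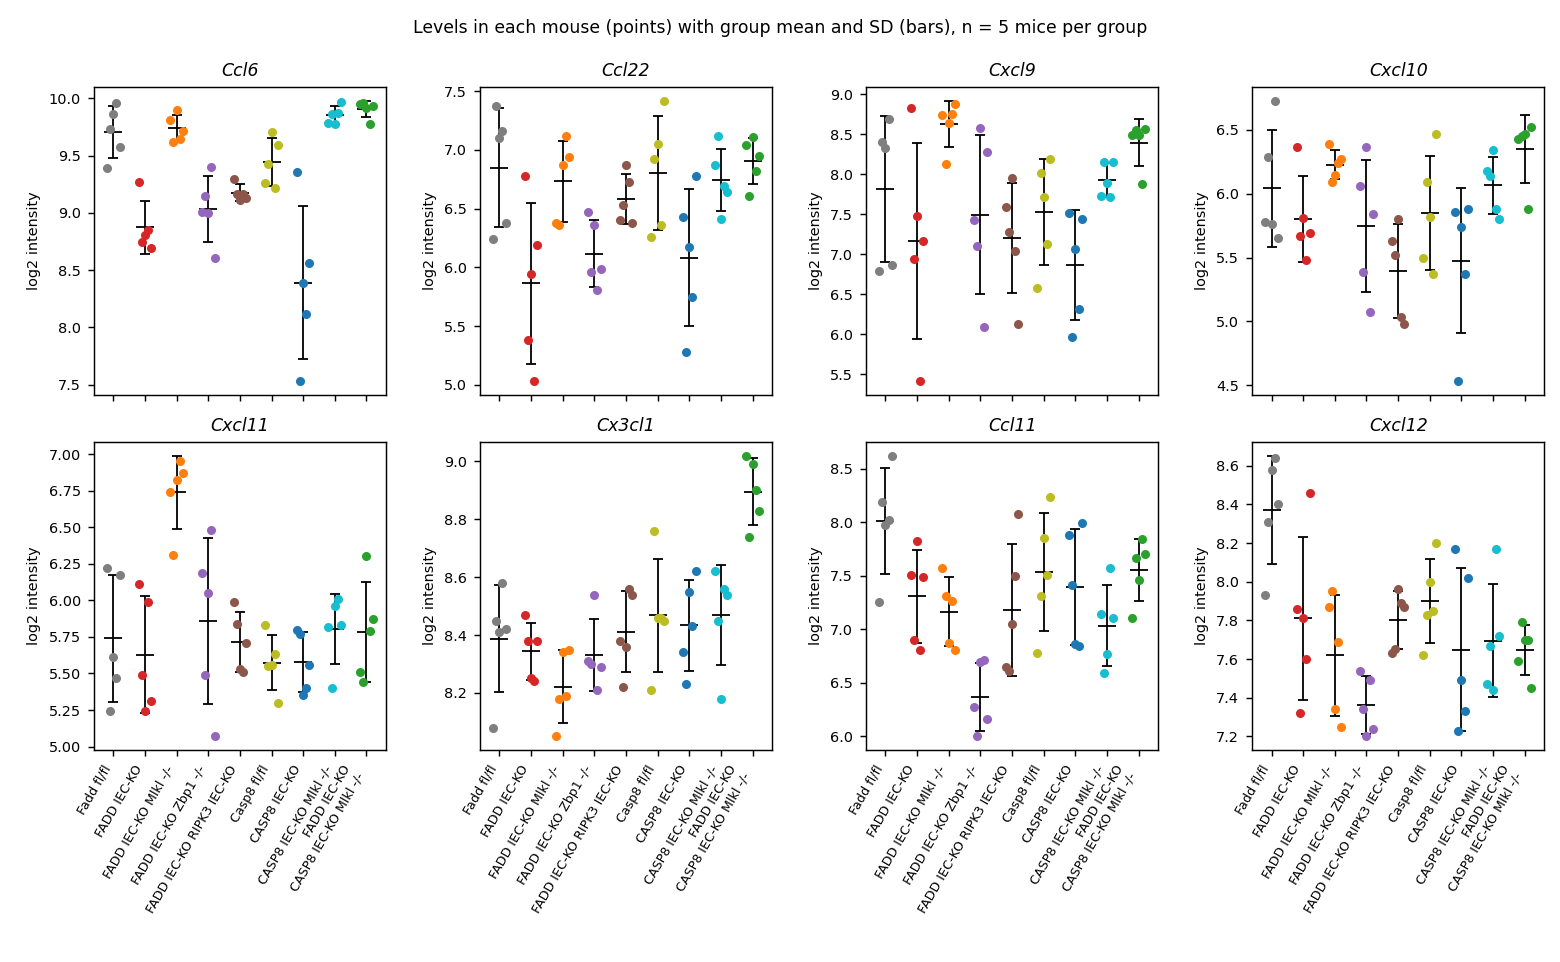
Log2 intensity of 8 members in each mouse (points), with group mean and SD (bars), in the 9 groups of 5. The 5 FADD IEC-KO Mlkl -/- mice stand at 6.31 to 6.95 for Cxcl11, the 5 triple mutants at 8.74 to 9.02 for Cx3cl1, and the 5 FADD IEC-KO Zbp1 -/- mice at 6.0 to 6.71 for Ccl11.

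Among the 10 inflammatory ligands, Ccl6 changed most often. It was 9.39, 9.73, 9.86, 9.96 and 9.58 in Fadd fl/fl and 9.27, 8.75, 8.81, 8.85 and 8.69 in FADD IEC-KO, without overlap, and fell by 0.83 on the log2 scale (-0.83 ± 0.17, adjusted p = 0.00321). In Casp8 fl/fl it was 9.26, 9.43, 9.71, 9.22 and 9.59, and in CASP8 IEC-KO 9.36, 7.53, 8.39, 8.12 and 8.56. There replicate 1, the mouse with the highest Casp8 level of its group, was the only mouse within the range of the controls. The difference was -1.05 ± 0.17 (adjusted p = 2.17e-04) and, without that mouse, -1.29 with an adjusted p of 1.09e-07. A fit of only the 2 groups compared, whose spread differed, gave an adjusted p of 0.127. Within each title series the difference had the same sign, at -0.64 (numbers under 100) and -1.12 (200 and over) for FADD and -0.98 and -1.25 for caspase-8.

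Where MLKL was lost as well, Ccl6 was higher than after loss of FADD or caspase-8 alone. FADD IEC-KO Mlkl -/- mice had 9.81, 9.62, 9.90, 9.65 and 9.72, which was 0.87 ± 0.17 above FADD IEC-KO (adjusted p = 0.00188). In CASP8 IEC-KO Mlkl -/- it was 9.79, 9.86, 9.78, 9.87 and 9.97, 1.46 ± 0.17 above CASP8 IEC-KO (adjusted p = 1.50e-07). Neither pair overlapped, and both calls held in all 10 fits leaving out 1 mouse. Against their controls these groups differed by 0.04 ± 0.17 (adjusted p = 0.937) and 0.41 ± 0.17 (adjusted p = 0.309), and the triple mutants, at 9.78 to 9.96, by 0.34 ± 0.15 (adjusted p = 0.210).

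Loss of ZBP1 or RIPK3 left Ccl6 lower than loss of MLKL did. FADD IEC-KO Zbp1 -/- mice had 9.01, 9.15, 9.0, 9.40 and 8.61, below Fadd fl/fl by -0.67 ± 0.17 (adjusted p = 0.00704) and below FADD IEC-KO Mlkl -/- by -0.71 ± 0.17 (adjusted p = 0.0112). FADD IEC-KO RIPK3 IEC-KO mice lay between 9.11 and 9.30, below FADD IEC-KO Mlkl -/- by -0.56 ± 0.17 (adjusted p = 0.0433). The last call was lost in each of the 10 fits leaving out 1 mouse (adjusted p 0.0536 to 0.107), although the groups did not overlap.

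Paneth cell markers, secretory products of the crypt base such as Lyz1 and Ang4, moved with Ccl6 in some comparisons and not in others. Of 8 such genes, 6 fell and 0 rose after loss of FADD and 6 fell and 0 rose after loss of caspase-8. In CASP8 IEC-KO Mlkl -/- 5 of 8 rose over CASP8 IEC-KO. In FADD IEC-KO Mlkl -/- 0 of 8 were called against FADD IEC-KO, and 7 of 8 stayed lower than in Fadd fl/fl, where Ccl6 was at the control level. Against FADD IEC-KO Mlkl -/-, Ccl6 was lower in FADD IEC-KO RIPK3 IEC-KO, whereas Lyz1 (1.52 ± 0.32) and Ang4 (1.81 ± 0.54) were higher. The list's mean there was 9.87 against 9.10. In FADD IEC-KO Zbp1 -/- against FADD IEC-KO Mlkl -/-, Ccl6 was lower and so were Defa24, Defa17 and Mptx2. The list's mean went from 11.18 in Fadd fl/fl to 9.07 after loss of FADD and 9.10 after loss of FADD and MLKL. It went from 10.74 in Casp8 fl/fl to 8.68 after loss of caspase-8 and 10.40 after loss of caspase-8 and MLKL. Its summed intensity was 15419 to 29928 in Fadd fl/fl, 4608 to 8468 without FADD and 4311 to 10345 in FADD IEC-KO Mlkl -/-. Of 9 macrophage markers, 3 were lower in FADD IEC-KO than in Fadd fl/fl (summed intensity 1114 to 1873 against 2019 to 2182), and 0 were called after loss of caspase-8. Goblet cell markers moved as well after loss of caspase-8, where 6 of 7 fell (Muc2, Tff3, Clca1, Fcgbp, Zg16 and Spink4) and 0 rose. Of these Tff3, Clca1 and Fcgbp were higher in CASP8 IEC-KO Mlkl -/- than in CASP8 IEC-KO. The goblet list summed to 32634 to 34597 in Casp8 fl/fl, 21763 to 30529 without caspase-8 and 30975 to 32634 where MLKL was also absent. After loss of FADD 1 of 7 goblet markers fell (Clca1), and 0 were called when MLKL was also absent against FADD IEC-KO. The part of these cell types in the Ccl6 result was not tested. In bulk tissue, fewer cells of a type and less RNA per cell cannot be told apart.

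Ccl9, the neighbour of Ccl6 and a rodent ligand of CCR1, was not called after loss of FADD or of caspase-8, where Ccl6 fell. In FADD IEC-KO it was 8.23, 8.67, 8.86, 8.94 and 8.99, against 8.30 to 8.85 in Fadd fl/fl (adjusted p = 0.744), and in CASP8 IEC-KO the difference was -0.03 ± 0.18 (adjusted p = 0.947). Like Ccl6 it was low in FADD IEC-KO Zbp1 -/-, at 7.15, 8.54, 8.32, 8.11 and 8.21, which was below FADD IEC-KO by -0.67 ± 0.18 (adjusted p = 0.0248), below FADD IEC-KO Mlkl -/- by -0.70 ± 0.18 (adjusted p = 0.0144) and below Fadd fl/fl by -0.53 ± 0.18 (adjusted p = 0.0398). Replicate 1 of that group was far below the rest. Without it all 3 calls were lost (adjusted p 0.129, 0.0777 and 0.217 in turn).

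Ccl12, a CCR2 ligand with low intensity, was 4.85 ± 0.26 (SD) in FADD IEC-KO and 4.81 ± 0.26 in FADD IEC-KO Zbp1 -/- against 5.34 ± 0.14 in Fadd fl/fl. Both fell, by 0.48 on the log2 scale (-0.48 ± 0.15 SE, adjusted p = 0.0495) and by 0.53 (-0.53 ± 0.15, adjusted p = 0.0129), without overlap. The first call held in 1 of 10 fits leaving out 1 mouse and was lost without FADD IEC-KO replicate 1 (adjusted p = 0.0559). Ccl5, a ligand made by cytotoxic lymphocytes, had group means from 7.68 in FADD IEC-KO to 9.36 in the triple mutants and was called by the F-test (adjusted p = 0.00325) but in no pair of groups. Its 5 triple mutants had 9.18, 9.07, 9.67, 9.34 and 9.51, while Fadd fl/fl ranged from 7.18 to 8.89. Ccl2, Ccl3, Ccl4, Ccl7, Ccl8 and Xcl1 were called nowhere. Ccl8 had the widest spread of these, with group means of 4.82 to 5.83 and an SD of 0.97 in FADD IEC-KO Zbp1 -/-.

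Of the 6 lymphoid and stromal ligands, 3 were called lower and 0 higher in FADD IEC-KO Zbp1 -/- than in Fadd fl/fl, where 11.9% of all genes were called. Ccl21b and Ccl21c are 1 measurement, so this stands for 2 of 5 distinct values. The median difference of the 6 symbols was -0.80, against -0.01 over all genes. This median counts the shared value of Ccl21b and Ccl21c under both symbols. Cxcl12, the CXCR4 ligand of stromal cells, was 7.93, 8.31, 8.58, 8.64 and 8.40 in Fadd fl/fl and 7.54, 7.34, 7.20, 7.49 and 7.24 in FADD IEC-KO Zbp1 -/-, without overlap. The difference was -1.01 ± 0.17 (adjusted p = 1.07e-04). In FADD IEC-KO Mlkl -/- it was 7.87, 7.95, 7.34, 7.69 and 7.25, a fall with overlap of 1 mouse (-0.75 ± 0.17, adjusted p = 0.00329). Both calls held in all 10 fits leaving out 1 mouse. FADD IEC-KO differed by -0.56 ± 0.17 (adjusted p = 0.0543), FADD IEC-KO RIPK3 IEC-KO by -0.57 ± 0.17 (adjusted p = 0.0863) and CASP8 IEC-KO by -0.25 ± 0.17 against its own control (adjusted p = 0.453).

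Ccl21b and Ccl21c, CCR7 ligands of lymphatic vessels read as 1 value here, were 7.41, 8.32, 8.41, 8.60 and 8.30 in Fadd fl/fl and 7.14, 6.89, 7.74, 7.05 and 6.86 in FADD IEC-KO Zbp1 -/-. The groups overlapped through the lowest control, and the difference was -1.07 ± 0.34 (adjusted p = 0.0315), a call that held in 3 of 10 fits leaving out 1 mouse. Ccl21a, the member of this set with the highest mean, went from 8.17 ± 0.35 (SD) to 7.58 ± 0.25 (adjusted p = 0.131). Ccl19 and Cxcl13 were called nowhere. Cxcl13 was nearest in FADD IEC-KO Zbp1 -/- against FADD IEC-KO Mlkl -/- (6.65 ± 0.86 against 7.68 ± 0.46, adjusted p = 0.0649).

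Of the 6 ligands of type 2 responses and dendritic cells, Ccl11 and Ccl22 changed. Ccl11, the eosinophil chemokine eotaxin, showed the largest called difference among all members. It was 7.25, 8.19, 7.97, 8.02 and 8.62 in Fadd fl/fl and 6.27, 6.0, 6.69, 6.71 and 6.16 in FADD IEC-KO Zbp1 -/-, without overlap. The difference was -1.65 ± 0.27 (adjusted p = 6.56e-05), at -1.40 among title numbers under 100 and -1.77 among those of 200 and over. FADD IEC-KO had 7.51, 6.90, 7.82, 6.81 and 7.49, all above the Zbp1 group, a difference of -0.94 ± 0.27 (adjusted p = 0.0427) that lost its call without FADD IEC-KO replicate 1 (adjusted p = 0.0812) and in a fit of only the groups compared (adjusted p = 0.183). FADD IEC-KO Mlkl -/- was below Fadd fl/fl by -0.85 ± 0.27 (adjusted p = 0.0374), which held in 2 of 10 fits leaving out 1 mouse and was lost with title series as a term (adjusted p = 0.173).

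Fibroblast and endothelial markers fell beside Ccl11 and Cxcl12. Of 7 fibroblast markers such as Col1a2 and Dcn, 6 were lower and 0 higher than in Fadd fl/fl in FADD IEC-KO Mlkl -/-. The counts were again 6 and 0 for FADD IEC-KO Zbp1 -/-. Of 8 endothelial markers such as Kdr and Cdh5, 6 were lower in the former and 7 in the latter, and 0 were higher in either. The fibroblast list summed to 3729 to 6263 in Fadd fl/fl, 2513 to 3662 in the MLKL group and 2602 to 4372 in the ZBP1 group. The endothelial list summed to 1008 to 1433, 647 to 869 and 594 to 879 in the same order. Other lists moved too. In FADD IEC-KO Mlkl -/- 4 of 6 smooth muscle markers (Cnn1, Actg2, Acta2 and Tagln) were lower than in Fadd fl/fl, with sums of 5474 to 7659 against 8099 to 13560, and 0 of 6 were called for FADD IEC-KO Zbp1 -/-. There 4 of 9 macrophage markers (C1qa, C1qb, C1qc and Mrc1) were lower, with sums of 1199 to 1823 against 2019 to 2182. Between FADD IEC-KO Zbp1 -/- and FADD IEC-KO, where Ccl11 differed, 0 of 7 fibroblast markers were called. Of 5 eosinophil markers 0 were called in FADD IEC-KO Zbp1 -/- against either group. The part of these cells in the ligand values was not tested.

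Ccl22, the CCR4 ligand of dendritic cells, was 6.24, 7.37, 7.10, 7.16 and 6.38 in Fadd fl/fl and 6.78, 5.38, 5.94, 5.03 and 6.19 in FADD IEC-KO. Only replicate 1 of the latter reached into the control range. This was the largest called difference after FADD loss, at -0.99 ± 0.26 (adjusted p = 0.0230), and -1.22 ± 0.25 without that mouse (adjusted p = 0.00370). A fit of only the groups compared gave an adjusted p of 0.163, and 4 of 10 fits leaving out 1 mouse lost the call. Without FADD IEC-KO replicate 1, Ccl22 was also higher in FADD IEC-KO Mlkl -/- than in FADD IEC-KO (1.10 ± 0.25, adjusted p = 0.0103, against 0.87 ± 0.26 and 0.0805 with it) and higher than there in the RIPK3 group (0.95 ± 0.25, adjusted p = 0.0403, against 0.72 ± 0.26 and 0.157). In CASP8 IEC-KO the difference was -0.72 ± 0.26 (adjusted p = 0.101). Of 7 dendritic cell markers, 1 fell after loss of FADD, with summed intensities of 374 to 473 in Fadd fl/fl and 369 to 402 in FADD IEC-KO, and its part in the Ccl22 result was not tested. Ccl1, Ccl17, Ccl24 and Ccl26 were called nowhere.

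The 5 neutrophil ligands changed little. Cxcl1, which draws neutrophils through CXCR2, was 5.94, 6.05, 6.15, 5.92 and 5.88 in FADD IEC-KO Zbp1 -/-. The FADD IEC-KO RIPK3 IEC-KO mice had 5.45, 5.73, 4.96, 5.50 and 5.77. The groups did not overlap, and the difference of RIPK3 from Zbp1 loss was -0.51 ± 0.13 (adjusted p = 0.0356). This call was lost in a fit of only the groups compared (adjusted p = 0.197) and with the Y-linked index as a term (adjusted p = 0.0718), and held in 4 of 10 fits leaving out 1 mouse. Against Fadd fl/fl, at 5.68, 5.61, 5.55, 5.53 and 5.54, FADD IEC-KO Zbp1 -/- was higher by 0.41 ± 0.13 (adjusted p = 0.0410). FADD IEC-KO itself had 5.92, 5.72, 6.0, 6.0 and 5.85, all above Fadd fl/fl, with an adjusted p of 0.184 for a difference of 0.32 ± 0.13.

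Cxcl3, whose upstream window shares the overlapping kappaB matches of Cxcl1, was 7.50 ± 0.17 (SD) in FADD IEC-KO Zbp1 -/-, against 7.15 ± 0.22 in Fadd fl/fl, a rise of 0.35 ± 0.12 (SE, adjusted p = 0.0414). The difference was 0.12 among title numbers under 100 and 0.58 among those of 200 and over. With title series as a term both the Cxcl1 call and the Cxcl3 call against Fadd fl/fl were lost (adjusted p = 0.0548 and 0.0549). A fit of only the groups compared also lost the Cxcl3 call (adjusted p = 0.139). Cxcl2, Cxcl5 and Cxcl15 were called nowhere, and the window of Cxcl2 held overlapping kappaB matches too. Cxcl2 differed after FADD loss by 0.39 ± 0.16 (adjusted p = 0.157). Of 8 neutrophil markers, 1 was higher and 0 lower in FADD IEC-KO than in Fadd fl/fl (S100a8, by 1.45 ± 0.28), and 0 were higher and 1 lower in FADD IEC-KO Zbp1 -/- than in Fadd fl/fl. That list summed to 221 to 426 without FADD, 189 to 219 where ZBP1 was also absent and 214 to 262 in Fadd fl/fl.

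Of the 18 receptors 3 were called in some comparison. Most were dim: 5 of 18 receptors, against 25 of 38 ligands, reached a log2 value of 6 on at least 5 arrays, which limits what small differences could show. Ccr9, the gut-homing receptor, was 5.92, 7.30, 6.92, 6.85 and 6.10 in Fadd fl/fl and 5.76, 5.77, 5.91, 5.24 and 4.95 in FADD IEC-KO Zbp1 -/-. No mice overlapped, though the highest of one and the lowest of the other were close, and the difference was -1.09 ± 0.30 (adjusted p = 0.0116). Without FADD IEC-KO Zbp1 -/- replicate 5 the adjusted p was 0.0524. In FADD IEC-KO the difference was -0.82 ± 0.30 (adjusted p = 0.105). Of 10 intraepithelial lymphocyte markers 1 was lower in FADD IEC-KO Zbp1 -/- than in Fadd fl/fl, and the list summed to 761 to 2363 against 903 to 2617. Its part was not tested. The ligand gene Ccl25 was not called there (-0.02 ± 0.08, adjusted p = 0.912).

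Ccr4, the receptor for CCL17 and CCL22 on helper and regulatory T cells, was 4.77, 5.22, 5.04, 5.02 and 5.60 in CASP8 IEC-KO Mlkl -/- and 4.24, 4.33, 4.27, 4.17 and 4.68 in CASP8 IEC-KO. It rose by 0.79 ± 0.20 (adjusted p = 0.0161) without overlap, and lost its call without CASP8 IEC-KO replicate 4 or CASP8 IEC-KO Mlkl -/- replicate 5 (adjusted p up to 0.0761). In FADD IEC-KO RIPK3 IEC-KO, at 4.39, 4.20, 4.10, 3.42 and 3.59, it was below FADD IEC-KO Mlkl -/- by -0.82 ± 0.20 (adjusted p = 0.0102), again without overlap. That call was lost without FADD IEC-KO RIPK3 IEC-KO replicate 4 or 5 (adjusted p up to 0.0584). Both of those mice have title numbers of 200 and over, which no FADD IEC-KO Mlkl -/- mouse has. Among title numbers under 100 the difference was -0.53. Xcr1, the receptor of cross-presenting dendritic cells, rose in CASP8 IEC-KO Mlkl -/- over CASP8 IEC-KO by 0.65 ± 0.19 (adjusted p = 0.0474) and kept its call in 3 of 10 fits leaving out 1 mouse. The call was also lost with title series (0.64, adjusted p = 0.0580) or the Y-linked index as a term (0.64, adjusted p = 0.0570) and after quantile normalization (0.62, adjusted p = 0.0801).

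The other 15 receptors were called nowhere in the fit of all mice. Among them the lymphoid receptor Ccr7 ranged over group means of 6.31 to 6.51, the T cell receptor Cxcr3 over 6.50 to 6.70 and the myeloid receptor Ccr1 over 5.36 to 5.92. Ccr2, the monocyte receptor, was 4.16 ± 0.62 (SD) in FADD IEC-KO Zbp1 -/-, while FADD IEC-KO RIPK3 IEC-KO mice had 4.20 ± 0.16, against 4.80 ± 0.57 in Fadd fl/fl (adjusted p = 0.109 and 0.278). The remaining ones were Ccr1l1, Ccr3, Ccr6, Ccr8, Ccr10, Cx3cr1, Cxcr1, Cxcr2, Cxcr4, Cxcr5 and Cxcr6. Over the 36 members called in no comparison between groups, the span between the lowest and highest group mean was 0.15 to 1.67. The widest was that of Ccl5, which the F-test did call.

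Other genes of the pathway were described by 3 lists. Of 12 related genes outside the naming rule (atypical receptors, platelet chemokines and others), Ccrl2, an atypical receptor, rose in CASP8 IEC-KO Mlkl -/- over CASP8 IEC-KO (0.99 ± 0.18, adjusted p = 5.39e-04) and fell in FADD IEC-KO Zbp1 -/- against Fadd fl/fl (-0.62 ± 0.18, adjusted p = 0.0205). It was also higher in CASP8 IEC-KO Mlkl -/- than in Casp8 fl/fl (0.81 ± 0.18, adjusted p = 0.0125), and Ackr2, another atypical receptor, was lower in the triple mutants than in both controls (-0.42 ± 0.12, adjusted p = 0.0424). Each was the only 1 of 12 called in its comparison. Of 21 genes of signalling below the receptors, 2 fell and 0 rose after loss of FADD (Gng2 and Pik3r5, with 3.73% of all genes called). In FADD IEC-KO Zbp1 -/- against Fadd fl/fl 1 of the 21 rose (Grk6) and 6 fell, with 11.9% of all genes called, Rgs13 (-1.26 ± 0.24), Pik3cg (-0.74 ± 0.18) and Vav1 (-0.49 ± 0.13) among those that fell. Of the 20 induction genes, 1 rose after loss of FADD (Tnf, by 1.44 ± 0.25, adjusted p = 4.12e-04) and 0 were called after loss of caspase-8. In FADD IEC-KO Mlkl -/- 4 of the 20 rose over Fadd fl/fl and 0 fell, with 10.5% of all genes called, Tnf at 1.93 ± 0.25 and Nfkb2 at 0.88 ± 0.09.

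Whether a ligand and its receptor varied together between mice was examined in 16 pairs, using each mouse's deviation from its group mean over 45 mice. In 0 of 16 pairs did the adjusted p fall under 0.05, by Pearson's or Spearman's measure in a permutation test. The nearest were Cxcl13 with Cxcr5 (Pearson's r = 0.38, permutation p = 0.0249, adjusted p = 0.203, Spearman's rho = 0.32, permutation p = 0.0551) and Cxcl12 with Cxcr4 (r = 0.41, permutation p = 0.0254, adjusted p = 0.203, rho = 0.38, permutation p = 0.0246). Without the 2 mice farthest from the median of the ligand, r was 0.43 and 0.39.

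Some members instead varied with marker lists of cell types. The 20 pairs examined were chosen after the values were seen, and the p-values, from permutation within groups, are adjusted over these 20. In 14 pairs the adjusted p was under 0.05. The rest were Ccl6 and Ccl9 with macrophage markers, Ccl9 and Ccl20 with follicle epithelium, Ccr4 with T cells and Ccl11 with smooth muscle. Ccl6 with the macrophage list gave r = 0.41 (adjusted p = 0.0729) and 0.22 without the 2 mice farthest from its median. Ccl5 followed the 10 intraepithelial lymphocyte markers with r = 0.94 and rho = 0.94 (permutation p = 1e-05, the smallest the permutations can give, adjusted p = 4.00e-05), and r was 0.95 and 0.89 within the title series and 0.92 without the 2 farthest mice. Ccr9 followed the same list with r = 0.82 and rho = 0.74 (adjusted p = 4.00e-05), with r = 0.85 under 100 and 0.54 at 200 and over (permutation p = 0.225), and 0.81 without the farthest mice. Cxcl9 followed the 9 T cell markers with r = 0.84 and rho = 0.75 (adjusted p = 4.00e-05 and 6.67e-05), at 0.85 in each title series and 0.80 without the farthest mice. The lymphocyte and T cell lists share Cd8a.

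Ccl21b followed the 6 lymphatic endothelium markers with r = 0.84 and rho = 0.81 (adjusted p = 4.00e-05), at 0.85 and 0.53 within the series (permutation p = 0.181 in the latter) and 0.80 without the farthest mice. Ccl6 followed the 8 Paneth cell markers with r = 0.66 and rho = 0.53 (adjusted p = 0.00278 and 0.00314), at 0.75 under 100 and 0.20 at 200 and over (permutation p = 0.816), and 0.58 without the farthest mice. CASP8 IEC-KO replicate 1 was the highest mouse of its group for both, with a Paneth list mean of 10.35 against 7.52 to 9.01. It was not among the farthest mice left out, and the relation was not computed without it. The second series gave 14 mice, because a group with 1 mouse there has no deviation. Ccl9 and the follicle epithelium list gave r = -0.04 and rho = 0.03 (adjusted p = 0.830 and 0.882), with r = -0.09 under 100 (permutation p = 0.682), -0.63 at 200 and over (permutation p = 0.0103) and 0.01 without the farthest mice. All measures of a mouse share 1 RNA sample and 1 array.

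**Figure D4:**
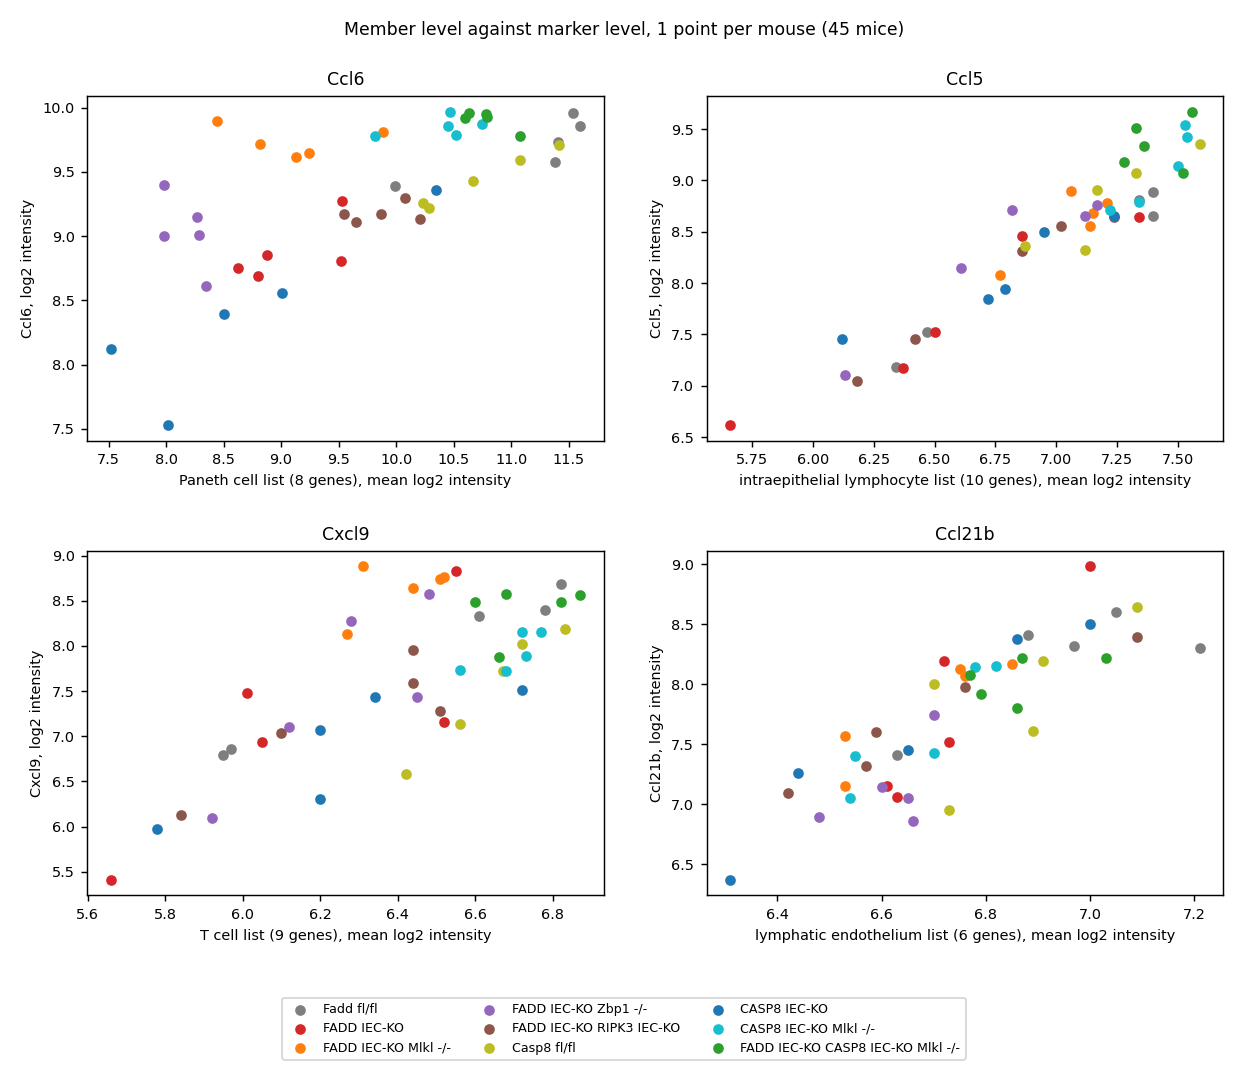
Log2 intensity of 4 members (vertical axes) against the mean log2 intensity of a marker list (horizontal axes), 1 point per mouse, 45 mice, coloured by group. Ccl5 runs along the intraepithelial lymphocyte list (within-group r = 0.94), while the 5 FADD IEC-KO Mlkl -/- mice sit high for Ccl6, at 9.62 to 9.90, with Paneth list means of 8.44 to 9.89.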

How the data were processed

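RNA of 45 ileum samples was hybridised to 1 array each. Per the submitters' processing notes, the authors used Affymetrix Expression Console and Transcriptome Analysis Console. The deposited values were log2 intensities, already normalized by the authors, with array medians of 6.36 to 6.44. The summarization method is not given in the sources used here. Of 22142 probes, 19527 carried 1 gene symbol, 0 several and 2615 none. For each gene the brightest probe (highest mean over the arrays) was used, giving 19494 genes, and no dim gene was removed. The precision depends on the number of arrays, the spread between mice and, for dim genes, the signal.

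A mean per group was fitted over all 45 arrays in limma 3.58.1 (R 4.3.3, 36 residual degrees of freedom) with eBayes, for 17 comparisons, 2 interactions and the F-test over 9 groups. P-values were adjusted over all genes by the Benjamini-Hochberg method separately per comparison. A gene was called where the adjusted p lay under 0.05, and differences carry standard errors. The fit was tested on simulated data. The groups are separate mice per the labels, and p-values measure the spread between these mice. Relations between genes used 100000 two-sided permutations within groups (scipy 1.17.1). Gene symbols, gene order and promoters came from RefSeq tables of GRCm38.p6; the build of the array annotation was not named, so no gene coordinates are given beyond the promoters. Members, lists and alternatives were chosen with earlier results of these data known. Named were the members called in a comparison (the 8 largest differences where over 8 were called), the brightest member of each role and, where none was called, the member with the smallest p. Other names were chosen after their values were seen. Tried as alternatives were fitting the compared groups alone, title series or a Y-linked index as a term, quantile normalization, a filter on dim genes (log2 of 6 on 5 arrays), the mean of all probes, and leaving out each mouse.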

Additional observations from a re-analysis of the deposited data

Results flagged for a closer look

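In 8 of 171 tested sets of 5 mice (the named members in each group), 1 mouse lay so far from the rest that its gap to the nearest other mouse passed Dixon's critical value, 0.71 of the group's range. That is 4.68%, and chance alone gives about 5%. The triple mutant replicate 4 accounted for 3 of them. It was low for Cxcl9 (7.88, next 8.49), Cxcl10 (5.88, next 6.43) and Ccl6 (9.78, next 9.92). FADD IEC-KO replicate 1, whose Fadd level was near the controls, was high for Ccl6 (9.27, next 8.85). In Fadd fl/fl, replicate 4 was high for Ccl12 (5.58, next 5.32) and replicate 1 low for Ccl21b (7.41, next 8.30). In CASP8 IEC-KO, replicate 2 was high for Ccl25 (7.88, next 7.79). In Casp8 fl/fl, replicate 1 was high for Cxcl1 (5.93, next 5.61).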

How the results depend on the processing

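Of the 43 calls of a member in a comparison, 0 changed direction under any alternative, 16 held in every fit leaving out 1 mouse, 21 under every other setting tried and 15 under both. A fit of only the groups compared lost 14 calls, title series as a term 11, the Y-linked index as a term (added after the data were seen) 4, quantile normalization 2 and the mean of all probes 1. Counts of called members moved as follows. With only the groups compared, FADD IEC-KO against Fadd fl/fl gave 1, and CASP8 IEC-KO against Casp8 fl/fl, FADD IEC-KO Zbp1 -/- against FADD IEC-KO and FADD IEC-KO RIPK3 IEC-KO against FADD IEC-KO Zbp1 -/- gave 0 each. The last also gave 0 with the Y-linked index and with the filter on dim genes. That filter gave 2 for CASP8 IEC-KO Mlkl -/- against CASP8 IEC-KO, because Ccr4 and Xcr1 were then not tested. Title series as a term gave 0 for the triple mutants against CASP8 IEC-KO Mlkl -/-.

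Leaving out 1 mouse at a time, the count ran from 1 to 3 for FADD IEC-KO and for CASP8 IEC-KO against their controls, and from 1 to 3 for the triple mutants against both. It ran from 2 to 4 for FADD IEC-KO Mlkl -/- against FADD IEC-KO and against Fadd fl/fl, and from 0 to 3 for FADD IEC-KO Zbp1 -/- against FADD IEC-KO. FADD IEC-KO Zbp1 -/- gave 3 to 12 against Fadd fl/fl and 2 to 5 against FADD IEC-KO Mlkl -/-. FADD IEC-KO RIPK3 IEC-KO gave 0 to 1 against FADD IEC-KO, 0 to 2 against Fadd fl/fl, 2 to 5 against FADD IEC-KO Mlkl -/- and 0 to 1 against FADD IEC-KO Zbp1 -/-. CASP8 IEC-KO Mlkl -/- gave 1 to 5 against CASP8 IEC-KO and 0 to 1 against Casp8 fl/fl, and the triple mutants 0 to 1 against CASP8 IEC-KO Mlkl -/-. The F-test called 15 to 18. Causes were not tested.

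The planned sex index with Xist was not run, because Xist is not analysed here. No paired analysis was possible because the titles share no numbers between groups. Members under the dim filter have no value in that setting. With 5 mice a group, a missed call does not show equality.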
